A study of Mus musculus with 12 samples.

Results

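The interferon response and RNA-sensing genes described here are 43 named genes: RNA and nucleic acid sensors, interferon transcription factors, 2-5 oligoadenylate synthetases, interferon-stimulated effectors, interferon-inducible GTPases and genes of antigen processing. They were chosen by symbol and known role, and no measured value enters the rule, although earlier results of these data were known when the list was drawn up. All 43 matched an identifier among the 55385 genes listed, and all 43 were among the 15090 genes with enough counts to be tested. The lowest estimate for any of them in a library was 5 counts.

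Primary mouse hepatocytes from 3 mice were treated with siRNA for 48 h, and total RNA of 12 libraries was sequenced on a BGISEQ-500 instrument. The libraries form 4 groups of 3, each with 1 library per mouse: siHnf4a with siCebpa (the double knockdown), siHnf4a alone, siCebpa alone and the control siRNA siCon. All 4 groups shared the culture medium, with 10% serum, 2 mM glutamine, 100 nM dexamethasone and 5% ITS supplement, and all 4 received an siRNA. The labels give neither the strain, sex and age of the mice nor the siRNA sequences, their dose or the delivery reagent, and cells without siRNA are not analysed here. Estimated counts summed to between 22453445 and 25008195 per library.

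Double-stranded RNA in the cytoplasm is bound by the helicases RIG-I (Ddx58) and MDA5 (Ifih1), which signal through Mavs on mitochondria to the factors Irf3 and Irf7. In endosomes it is bound by Tlr3. Secreted interferons then act through Janus kinases on a complex that holds Stat2 and Irf9 and binds the interferon-stimulated response element (ISRE), while interferon gamma acts through the gamma-activated site (GAS). An siRNA is itself a short RNA duplex that can be sensed in this way, so siHnf4a was also set against siCebpa, since both groups received an siRNA against a transcription factor.

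The DNA just before the transcription start is shown for 6 members, because these genes carry the contrasts described in the results: Igtp and Irgm1 are related GTPases that moved in opposite directions, Gbp7 differed between both single knockdowns, Isg15 and Oas3 were lowest in mouse 1 in every group, and Tlr3 rose with Hnf4a siRNA. Each line gives the 120 bases before the start that RefSeq annotates on GRCm38.p6, read 5′ to 3′ on the gene's strand. Capitals mark the ISRE core GAAANNGAA on either strand and the GAS TTCNNNGAA, which reads the same on both strands. Overlapping matches run together.
Igtp, chr11:58199436-58199555, plus strand: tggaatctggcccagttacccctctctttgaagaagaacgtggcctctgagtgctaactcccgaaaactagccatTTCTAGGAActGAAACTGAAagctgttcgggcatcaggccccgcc
Irgm1, chr11:48871421-48871540, minus strand: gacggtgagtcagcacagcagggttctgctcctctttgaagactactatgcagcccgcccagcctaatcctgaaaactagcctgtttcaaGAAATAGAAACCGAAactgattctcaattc
Gbp7, chr3:142530216-142530335, plus strand: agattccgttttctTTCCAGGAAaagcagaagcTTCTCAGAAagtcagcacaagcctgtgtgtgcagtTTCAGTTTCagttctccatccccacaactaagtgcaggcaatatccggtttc
Isg15, chr4:156200819-156200938, minus strand: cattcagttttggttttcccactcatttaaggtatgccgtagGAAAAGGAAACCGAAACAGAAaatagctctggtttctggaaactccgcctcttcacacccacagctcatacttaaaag
Oas3, chr5:120777660-120777779, minus strand: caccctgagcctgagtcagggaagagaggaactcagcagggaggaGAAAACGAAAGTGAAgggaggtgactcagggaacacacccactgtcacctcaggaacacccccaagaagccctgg
Tlr3, chr8:45410381-45410500, minus strand: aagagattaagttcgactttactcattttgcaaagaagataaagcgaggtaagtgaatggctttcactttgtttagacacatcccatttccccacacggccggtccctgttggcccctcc

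Promoter windows of 300 bases, from 250 before to 50 after the start, were found for 34 of the 43 genes. Those without one were Ifi27, Mx2, Usp18, Dhx58, Zbp1, Oas2, Mx1, Parp14 and Oas1b. The ISRE core lay in the window of 20 of the 34 genes, where 9.76% of the 27025 genes with a window held it. The GAS lay in 9 of the 34, against 9.55% of all genes. Both patterns are short and a match describes the sequence only. Igtp had the ISRE core at -34 and a GAS at -45 from the start, and Irgm1 had overlapping ISRE cores at -30 and -24; these genes of opposite change both held the core close to the start. Isg15 had 3 overlapping cores, at -78, -72 and -66, and Oas3 had 2, at -75 and -69. Gbp7 combined an ISRE core at -52 with GAS matches at -106 and -87. The Tlr3 window held neither pattern. GENCODE M21 starts Tlr3 further upstream than RefSeq, at 45411080, and Irgm1 at 48871683. The stretches shown for both lie inside the genes as GENCODE annotates them. The DNA before those GENCODE starts was not searched. Of the members higher in siHnf4a than in siCon that had a window, 3 of 7 held the ISRE core.

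Hnf4a and Cebpa transcripts followed the labels in every library. Hnf4a was at 33.5 to 40.1 CPM (counts scaled to library size with TMM factors) in the double knockdown and 46.4 to 59.2 CPM in siHnf4a, against 149 to 293 CPM in siCebpa and 144 to 297 CPM in siCon. Cebpa was at 84.5 to 109 CPM in the double knockdown and 26.1 to 33.7 CPM in siCebpa, against 204 to 234 CPM in siHnf4a and 179 to 211 CPM in siCon. It was less reduced in the double knockdown than in siCebpa, with no overlap.

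Hepatocytes with Hnf4a siRNA carried more transcript of several interferon-inducible genes than cells with control siRNA, and less of one of them, Irgm1. There 8 members rose in siHnf4a against siCon (Tlr3, Zbp1, Ifi35, Gbp2, Gbp7, Igtp, Psmb8 and Tap1) and 1 fell. These calls come from edgeR's quasi-likelihood test with Benjamini-Hochberg adjustment over the 15090 genes, with a threshold of 0.05, which called 7.24% of all genes higher and 7.29% lower. The median log2 fold change over the 43 members was 0.53, where the median over all tested genes was 0.00, and 35 of the 43 were higher in siHnf4a in all 3 mice, against 27.7% of all tested genes. With the mouse as a replicate block, 23 members rose and 2 fell (Irgm1 and Trim25), against 14.5% of all genes higher and 15.5% lower.

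**Figure D1:**
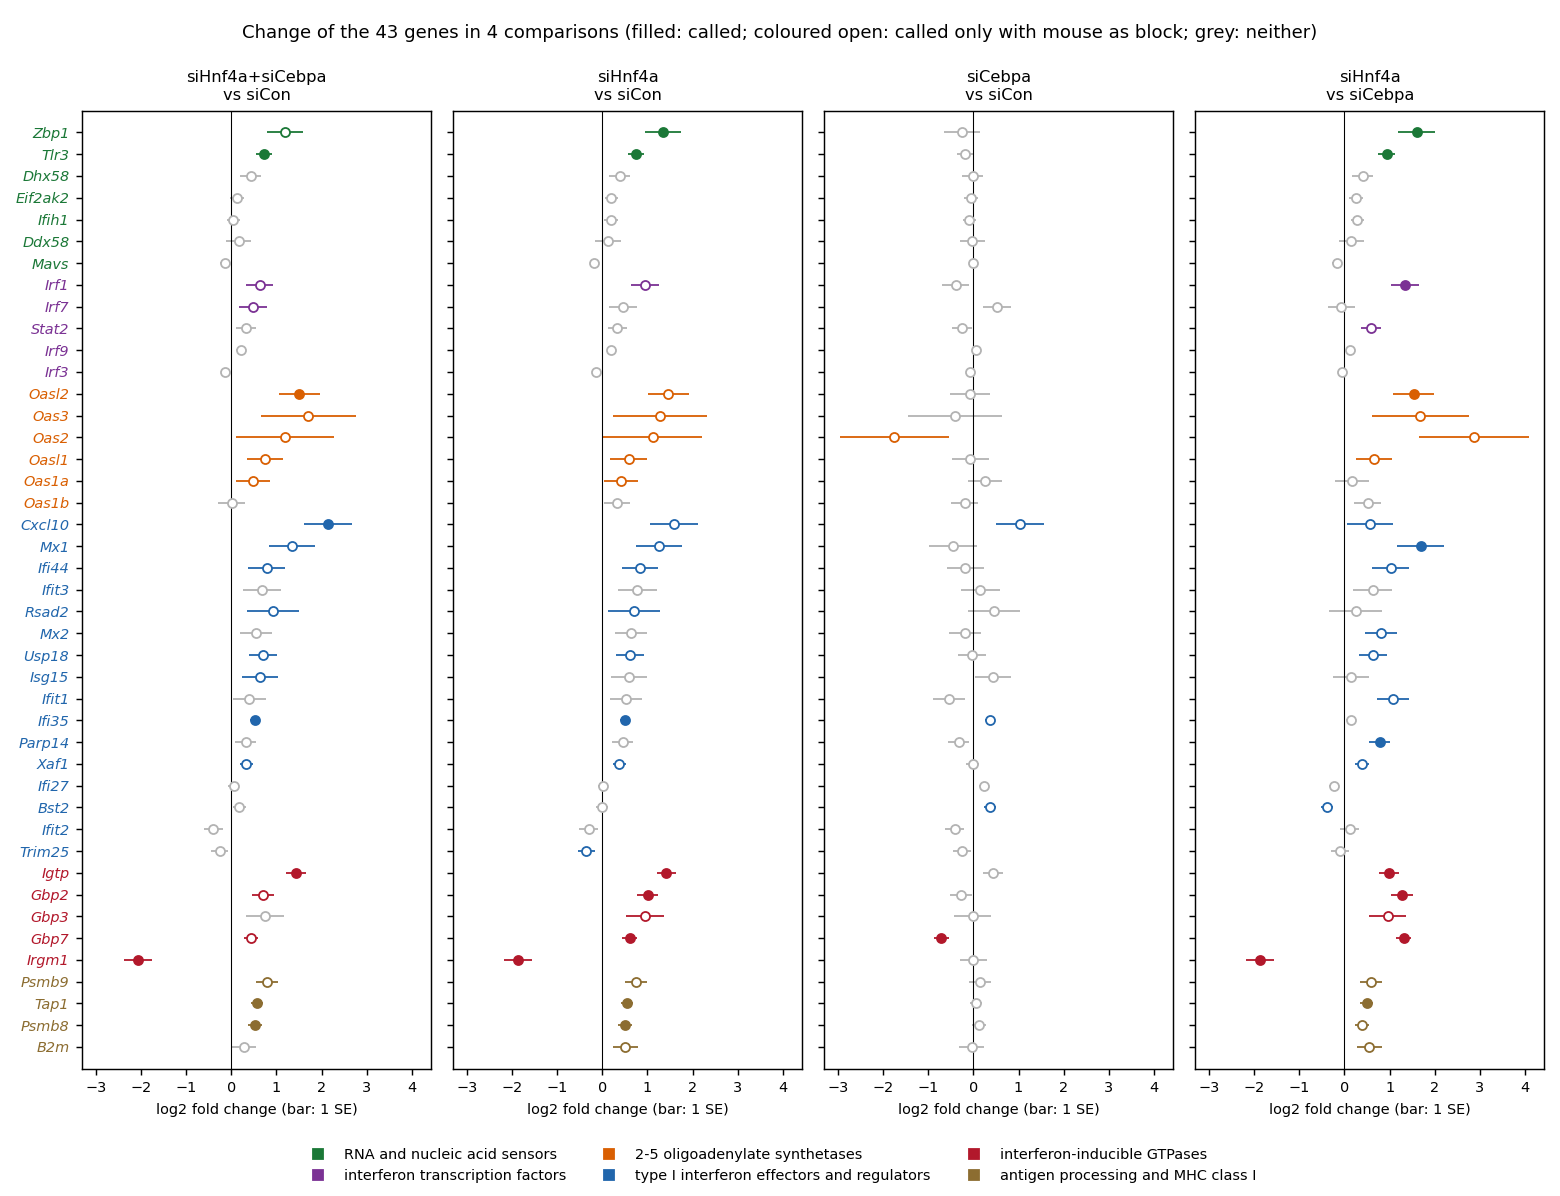
Log2 fold change of each of the 43 genes (rows, grouped and coloured by role) in 4 comparisons (panels), with bars of 1 standard error; filled points passed the adjusted threshold, coloured open points passed it only with mouse as a block, and grey points in neither fit. Irgm1 lies at -1.87 in siHnf4a while the other GTPases lie above 0, and the siCebpa panel has 1 filled point, Gbp7.

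Of the 7 genes listed as sensors, the endosomal receptor and Zbp1 rose in siHnf4a, and the cytoplasmic helicases did not pass the test. Against siCon 7.24% of all genes rose there. Tlr3 (ENSMUSG00000031639.12, chromosome 8, 45395665 to 45411080, GRCm38) stood at 29.9, 43.5 and 42.4 CPM in the double knockdown, 34.2, 42.8 and 41.3 in siHnf4a, 17.4, 24.6 and 20.1 in siCebpa and 19.3, 25.1 and 25.9 in siCon (mice 1, 2 and 3). All 6 libraries with Hnf4a siRNA lay above all 6 without it. The log2 fold change in siHnf4a against siCon was 0.75 ± 0.18 (± SE throughout; adjusted p = 0.0184 in edgeR). An annotated transcript, Gm45542, overlaps Tlr3 on the other strand, and whether counting used strand is not given in the sources used here.

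Zbp1, which binds left-handed nucleic acid and can start necroptosis, stood at 65.5, 76.3 and 99.9 CPM in the double knockdown, 56.2, 98.4 and 113 in siHnf4a, 36.0, 40.5 and 12.04 in siCebpa and 28.01, 44.8 and 33.1 in siCon. The libraries with and without Hnf4a siRNA again did not overlap. It rose by 1.34 ± 0.40 in siHnf4a (adjusted p = 0.0466). In the double knockdown it was 1.19 ± 0.40 above siCon (adjusted p = 0.0715 in edgeR, and 0.0286 with the block).

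The helicases, the kinase Eif2ak2 and the adaptor Mavs were well expressed and their differences were small. Ddx58 ranged from 60.7 to 141 CPM over the 12 libraries and Ifih1 from 69.3 to 103. For siHnf4a against siCon, edgeR gave Ddx58 a log2 fold change of 0.12 ± 0.28, with a 95% interval from -0.49 to 0.74 (adjusted p = 0.815). For Ifih1 it was 0.19 ± 0.15 (-0.13 to 0.51, adjusted p = 0.428). Dhx58, the helicase LGP2 that modulates both, was at 0.39 ± 0.23 (-0.13 to 0.90, adjusted p = 0.309). Eif2ak2, the kinase PKR that stops translation on binding double-stranded RNA, was at 0.20 ± 0.15 (-0.12 to 0.53, adjusted p = 0.407). Mavs was at -0.18 ± 0.11 (-0.41 to 0.06, adjusted p = 0.311). None of these 5 passed in any alternative, and the upper bounds of all 5 intervals lay below 1 on the log2 scale.

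In the double knockdown the same 5 lay at 0.16 ± 0.28 for Ddx58 (edgeR adjusted p = 0.755), 0.05 ± 0.15 for Ifih1 (0.865), 0.44 ± 0.23 for Dhx58 (0.25), 0.12 ± 0.15 for Eif2ak2 (0.634) and -0.13 ± 0.11 for Mavs (0.457). In siCebpa they lay between -0.09 ± 0.15 for Ifih1 (adjusted p = 0.789) and -0.00 ± 0.11 for Mavs (0.999). Ddx58 was at -0.03 ± 0.28 there (0.971), Dhx58 at -0.02 ± 0.23 (0.976) and Eif2ak2 at -0.05 ± 0.15 (0.883). Tlr3 and Zbp1 were at -0.18 ± 0.18 (0.635) and -0.26 ± 0.40 (0.776) in siCebpa.

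Among the 5 interferon transcription factors none passed in siHnf4a against siCon in the unblocked fit. Irf1, induced by interferon gamma and an activator of Gbp and antigen-processing genes, came nearest. It stood at 119, 139 and 76.9 CPM in the double knockdown, 154, 147 and 114 in siHnf4a, 62.5, 63.0 and 39.0 in siCebpa and 102, 67.01 and 46.7 in siCon. The siHnf4a libraries lay above all siCon libraries (edgeR adjusted p = 0.0593, and 0.000518 with the block). Mouse 1 in siCon was the highest library outside the groups with Hnf4a siRNA. Irf3 was nearly flat, between 55.7 and 66.2 CPM in all 12 libraries, and Irf9 ranged from 87.4 to 122.6 CPM. Irf7, itself strongly interferon-inducible, was at 74.2 CPM in siCon of mouse 1 and between 153 and 267 in the other 11 libraries.

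The 2-5 oligoadenylate synthetase family includes the enzymes that make the messenger activating RNase L, and all 6 members were lowest in mouse 1 in every group. Their median log2 fold change was 0.85 in siHnf4a against siCon, and none passed without the block. Oasl2, a family member with ubiquitin-like domains, stood at 43.4, 73.1 and 87.9 CPM in the double knockdown, 33.8, 74.5 and 90.2 in siHnf4a, 17.1, 33.6 and 17.7 in siCebpa and 12.1, 32.9 and 27.1 in siCon. Its groups with and without Hnf4a siRNA just failed to overlap, by 33.8 in siHnf4a against 33.6 in siCebpa. It rose 2.83-fold in the double knockdown (log2 SE 0.45, edgeR adjusted p = 0.0498), while siHnf4a missed the threshold (0.0543, and 0.000768 with the block).

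Oas3 spanned 15.7, 58.5 and 144 CPM in the double knockdown, 10.7, 56.9 and 94.4 in siHnf4a, 3.76, 21.3 and 25.4 in siCebpa and 2.46, 35.3 and 29.1 in siCon. Within each mouse both groups with Hnf4a siRNA were above both without it, but mouse 1 with Hnf4a siRNA stayed below mice 2 and 3 in siCon. Oas3 was picked for this after its values were seen: its edgeR adjusted p in siHnf4a was 0.465 without the mouse block and 0.0049 with it. With the block 5 of the 6 synthetases rose in siHnf4a, Oas1b being the exception, where 14.5% of all genes rose. Oas1b and Mx2 are annotated as polymorphic pseudogenes in GENCODE M21, and reads of Oas1a and Oas1g, of Ifit3 and Ifit3b and of Mx1 and Mx2 may be split between near-identical copies.

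**Figure D2:**
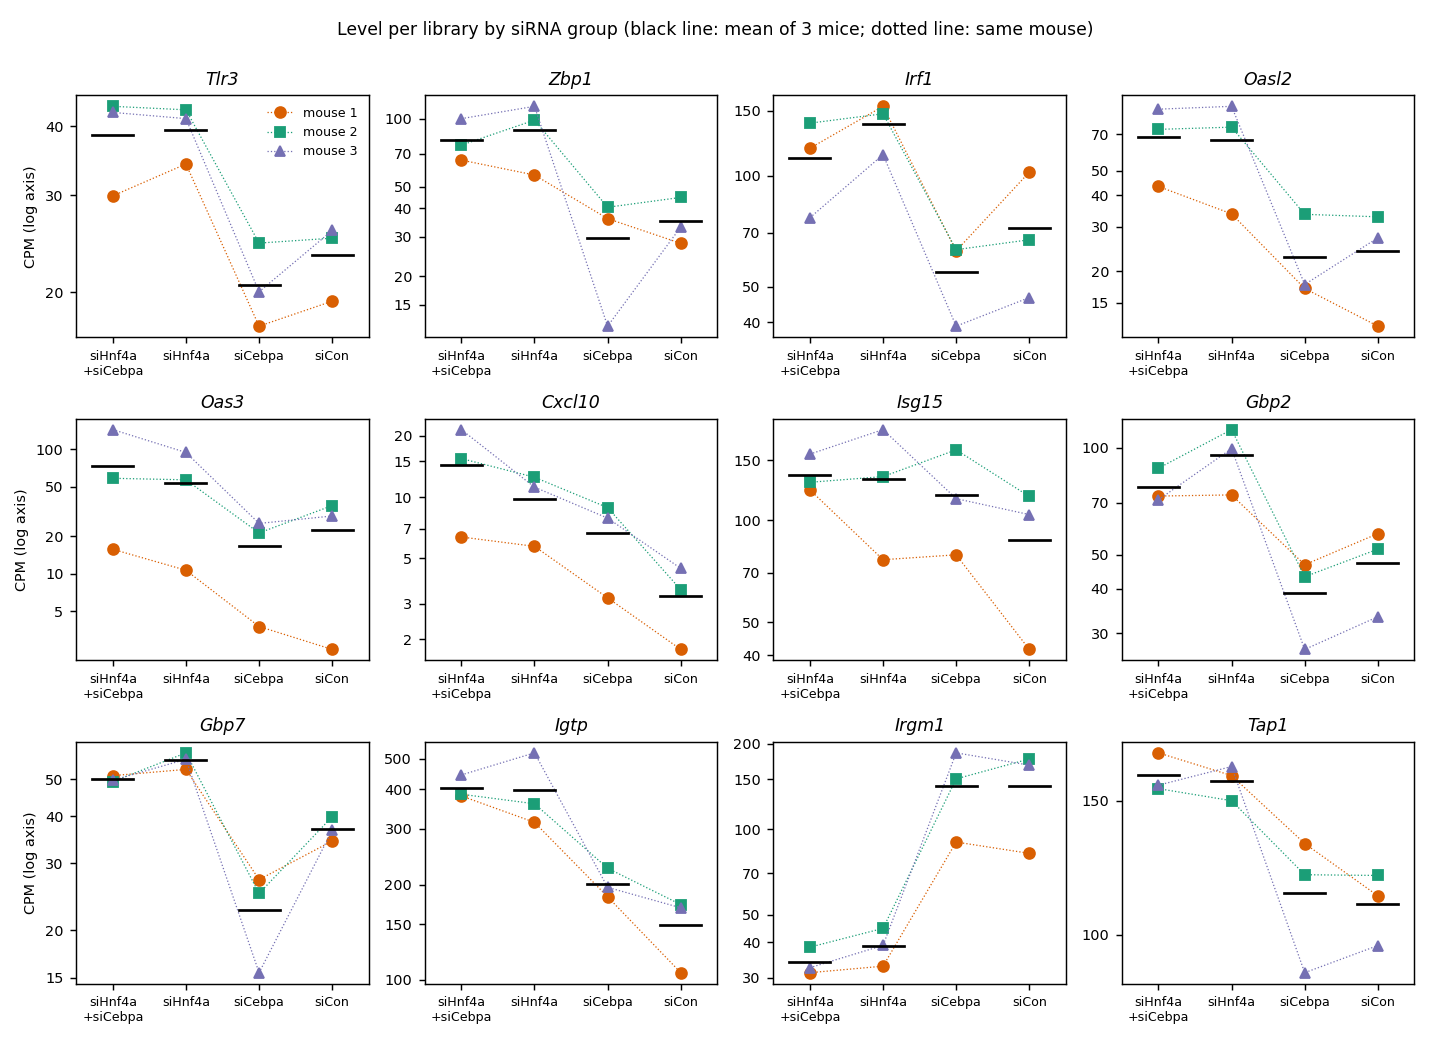
CPM per library on log axes for 12 of the 43 genes, by siRNA group, with 1 marker shape per mouse, dotted lines joining the libraries of a mouse and black lines for group means. Irgm1 libraries with Hnf4a siRNA sit between 31.3 and 44.8 CPM and all others at 82.3 or above, while Oas3 and Cxcl10 are lowest in mouse 1 in every group.

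Of the 16 interferon-stimulated effectors and regulators, Ifi35 rose in siHnf4a, and Ifi35 and Cxcl10 rose in the double knockdown. Of all genes 7.24% and 6.9% rose in these comparisons with siCon. Ifi35, an interferon-induced leucine zipper protein, stood at 99.8, 100.4 and 98.8 CPM in the double knockdown, 87.0, 95.6 and 114 in siHnf4a, 82.7, 98.4 and 87.6 in siCebpa and 63.4, 77.3 and 68.1 in siCon. Every knockdown library lay above all siCon libraries. It rose by 0.51 ± 0.11 with siHnf4a alone and by 0.52 ± 0.11 with both siRNAs (edgeR adjusted p = 0.0125 and 0.0111). In siCebpa it passed only with the block (0.0941 without it and 0.0226 with it).

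Cxcl10, a chemokine that attracts T cells, was scarce: 6.37, 15.4 and 21.4 CPM in the double knockdown, 5.73, 12.5 and 11.2 in siHnf4a, 3.20, 8.88 and 7.88 in siCebpa and 1.79, 3.51 and 4.46 in siCon. In each mouse siCon was the lowest of the 4 groups. It rose by 2.15 ± 0.53 in the double knockdown (edgeR adjusted p = 0.0213), and with the block also in siHnf4a (8.46e-05, against 0.0678 without it) and in siCebpa (0.00354, against 0.299). The gene overlaps Art3 on the other strand.

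Isg15, a ubiquitin-like modifier and a standard readout of type I interferon, stood at 122.7, 129 and 156 CPM in the double knockdown, 76.4, 134 and 185 in siHnf4a, 79.0, 161 and 116 in siCebpa and 41.6, 117 and 104 in siCon. siHnf4a overlapped siCon, and Isg15 passed only in the double knockdown with the block (0.0289, against 0.332 without it). Ifit1 ranged from 24.8 to 95.8 CPM, Ifit2 from 11.3 to 23.8 and Ifit3 from 6.11 to 27.9. None of these 3 RNA-binding effectors passed against siCon in either fit. Rsad2, Usp18, Ifi44, Mx1 and Xaf1 passed against siCon in both groups with Hnf4a siRNA in the blocked edgeR fit but not in the unblocked one. Bst2, which tethers budding virions, was the most abundant effector at 337 to 549 CPM, and passed in siCebpa only with the block (0.0151, against 0.157).

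The interferon-inducible GTPases moved in both directions. Igtp (Irgm3, ENSMUSG00000078853.8, chromosome 11, 58199556 to 58207591, plus strand) and Irgm1 are both regulatory members of the immunity-related GTPases, which hold the effector members of that family inactive on the cell's own membranes. Igtp stood at 382, 386 and 445 CPM in the double knockdown, 315, 360 and 522 in siHnf4a, 183, 225 and 196 in siCebpa and 105, 173 and 169 in siCon. Every siCebpa library also lay above all siCon libraries, but Igtp did not pass in that comparison in either fit. It rose by 1.42 ± 0.22 with siHnf4a alone and by 1.44 ± 0.22 with both siRNAs (edgeR adjusted p = 0.00184 and 0.00163). Igtp overlaps Irgm2 on the same strand in the annotation, so their reads may be shared. Irgm2 ranged from 129.99 to 244 CPM in the 12 libraries and passed against siCon in neither fit.

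Irgm1 (ENSMUSG00000046879.7, chromosome 11, 48861968 to 48871683, minus strand) fell where Igtp rose. Irgm1 stood at 31.3, 38.5 and 32.6 CPM in the double knockdown, 33.0, 44.8 and 39.0 in siHnf4a, 90.3, 151 and 186 in siCebpa and 82.3, 177 and 168 in siCon. The highest library with Hnf4a siRNA was below the lowest without it. It fell by 1.87 ± 0.31 with siHnf4a alone and by 2.06 ± 0.31 with both siRNAs (edgeR adjusted p = 0.00277 and 0.00155). Igtp and Irgm1 passed against siCon and against siCebpa whichever library was left out, for siHnf4a and for the double knockdown alike.

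The guanylate-binding proteins Gbp2, Gbp3 and Gbp7, which attack pathogen membranes, lie side by side on chromosome 3. Gbp2 stood at 73.0, 87.5 and 71.3 CPM in the double knockdown, 73.6, 112 and 99.3 in siHnf4a, 46.8, 43.3 and 27.0 in siCebpa and 57.3, 51.8 and 33.4 in siCon, and rose by 1.00 ± 0.24 in siHnf4a (edgeR adjusted p = 0.0196). Gbp7 stood at 51.1, 49.3 and 49.7 CPM in the double knockdown, 53.1, 58.7 and 56.4 in siHnf4a, 27.2, 24.9967 and 15.4 in siCebpa and 34.4, 39.8 and 36.6 in siCon. Its siCon libraries lay between those of siHnf4a above and those of siCebpa below, with no overlap. It rose by 0.60 ± 0.16 in siHnf4a (adjusted p = 0.0316). That call was lost in all 6 unblocked fits that left out 1 library of siHnf4a or siCon. In the double knockdown Gbp2 and Gbp7 passed only with the block (0.0169 and 0.0434, against 0.0789 and 0.102 without it).

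The antigen-processing genes Tap1, Psmb8 and Psmb9, which lie together on chromosome 17, had log2 fold changes of 0.54, 0.50 and 0.75 in siHnf4a against siCon. Tap1, a subunit of the transporter that carries peptides to MHC class I, stood at 173, 155 and 157 CPM in the double knockdown, 162, 150 and 166 in siHnf4a, 132, 120 and 89.1 in siCebpa and 112, 120 and 96.7 in siCon. It rose by 0.54 ± 0.13 with siHnf4a alone and by 0.56 ± 0.13 with both siRNAs (edgeR adjusted p = 0.0221 and 0.0179). Psmb8, an immunoproteasome subunit, stood at 120, 98.2 and 91.3 CPM in the double knockdown, 102, 93.0 and 111 in siHnf4a, 93.1, 75.8 and 65.0 in siCebpa and 84.0, 66.6 and 65.2 in siCon. It rose by 0.52 ± 0.15 in the double knockdown (adjusted p = 0.0449), and its call in siHnf4a was marginal (0.0498).

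Psmb9, the second inducible subunit, passed only with the block in siHnf4a (0.00385, against 0.0633) and in the double knockdown (0.00372, against 0.0548). Psmb9 and Tap1 overlap on opposite strands, and their promoter windows share 275 of 300 bases. B2m, the light chain of MHC class I, was the most abundant member at 1355 to 3144 CPM and was highest in mouse 1 in all 4 groups. It passed in siHnf4a only with the block (0.00644, against 0.262).

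In the unblocked fit the count in siHnf4a depended on single libraries. Against 9 members called, 3 were called without mouse 2 of siHnf4a, 3 without mouse 3 of siHnf4a, 3 without mouse 3 of siCon and 5 without mouse 2 of siCon. Calls over all genes fell as well, from 1093 higher and 1100 lower. In the order named they were 587 and 550, 714 and 775, 576 and 628, and 530 and 590. Igtp and Irgm1 were called in every one of these fits.

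With Cebpa siRNA alone, Gbp7 was the only member past the threshold in siCebpa against siCon, and it fell by 0.71 ± 0.16 (edgeR adjusted p = 0.0379), where the test called 2.94% of all genes higher and 1.72% lower. The median over the 43 members was -0.04, with 9 of 43 members higher in all 3 mice, against 26.0% of all tested genes. There were 6 members lower in all 3, for which the share over all genes was not computed. With the block Bst2, Cxcl10 and Ifi35 rose and Gbp7 and Oas2 fell, 5 of 43, against 8.73% of all genes higher and 8.11% lower. On the TPM scale, where the median of all tested genes shifted by -0.12, 96 genes were called higher and 345 lower, against 444 and 260 in the count test, and Gbp7 remained the only member called. Gbp7 lost its call without mouse 2 of siCebpa, without mouse 2 of siCon, without mouse 3 of siCon and when only these 2 groups were fitted. Calls over all genes fell as well, from 444 higher and 260 lower. In the order named they were 207 and 134, 59 and 58, 61 and 53, and 23 and 22.

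Set directly against siCebpa, siHnf4a had 10 members higher and 1 lower, in a comparison in which 7.51% of all genes were higher and 8.67% lower. With the block 24 were higher and 2 lower (Irgm1 and Bst2), against 14.9% and 16.3% of all genes. This comparison shares the siHnf4a libraries with the one against siCon. The median member difference was 0.55, and 29 of 43 members were higher in siHnf4a in all 3 mice, against 28.3% of all tested genes.

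Among the members past the unblocked threshold, the largest differences between siHnf4a and siCebpa were those of Irgm1, at -1.87 ± 0.31 (edgeR adjusted p = 0.00276), and Mx1, a GTPase that blocks viral nucleocapsids, at 1.69 ± 0.52 (0.0493). Mx1 was scarce, with 1.75, 4.81 and 4.40 CPM in siHnf4a against 1.21, 1.33 and 0.841 in siCebpa. Zbp1 was higher by 1.60 ± 0.40 (0.0219), Oasl2 by 1.54 ± 0.45 (0.0421) and Irf1 by 1.34 ± 0.30 (0.0137). Gbp7 was higher by 1.31 ± 0.17 (0.000649), Gbp2 by 1.28 ± 0.24 (0.00593) and Igtp by 0.99 ± 0.21 (0.0114). Tlr3, Tap1 and Parp14, an ADP-ribosyltransferase, were the remaining genes that rose. Oas2, singled out after its values were seen, had a larger log2 difference of 2.87 but passed only with the block (edgeR adjusted p = 0.134 without it and 0.000186 with it).

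Ddx58, Ifih1, Dhx58, Mavs and Eif2ak2 did not pass between siHnf4a and siCebpa in either fit. Their 95% intervals ran from -0.47 to 0.77 for Ddx58, -0.04 to 0.60 for Ifih1, -0.11 to 0.92 for Dhx58, -0.41 to 0.06 for Mavs and -0.07 to 0.58 for Eif2ak2. The count of 11 fell to 5 without mouse 2 of siHnf4a, to 6 without mouse 3 of siHnf4a and to 6 without mouse 3 of siCebpa, and was 6 when only these 2 groups were fitted. Calls over all genes fell as well, from 1133 higher and 1309 lower. In the order named they were 637 and 494, 911 and 860, 663 and 695, and 685 and 637. The member count was 20 when all 4 libraries of mouse 1 were left out, an alternative added after the data had been seen, with 19 members higher and 1 lower where 9.09% and 9.62% of all genes were called. Gbp2, Gbp7, Igtp, Tlr3 and Irgm1 kept their calls whichever library was left out. On the TPM scale the median of all tested genes shifted by 0.10 between these groups, and its calls over all genes were 1596 higher and 472 lower, where the count test gave 1133 and 1309. The members split 13 to 1 on that scale.

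In the double knockdown against siCon 7 members rose (Tlr3, Oasl2, Ifi35, Cxcl10, Igtp, Psmb8 and Tap1) and Irgm1 fell, where 6.9% of all genes were higher and 7.13% lower. With the block 23 rose and 1 fell, against 13.8% and 15.6%. The median member difference was 0.52. The count of 8 became 4 without mouse 2 or without mouse 3 of the double knockdown, 4 without mouse 2 of siCon and 5 without mouse 3 of siCon, with Ifi35, Igtp and Irgm1 called in each of these fits. Calls over all genes fell as well, from 1041 higher and 1076 lower. In the order named they were 691 and 647, 686 and 737, 574 and 636, and 568 and 653.

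Against siCebpa the double knockdown had 9 members higher and 1 lower, where 6.51% and 6.47% of all genes were called. With the block these were 22 and 1, against 13.0% and 14.3%. Irgm1 was at -2.06 ± 0.31 on the log2 scale (edgeR adjusted p = 0.00188). Mx1 was higher by 1.78 ± 0.52 (0.0473), Oasl2 by 1.58 ± 0.46 (0.0446), Zbp1 by 1.45 ± 0.40 (0.0385) and Gbp7 by 1.15 ± 0.17 (0.00148). The Mx1 call was lost in all 6 unblocked fits that left out 1 library of these groups. Irf1 was higher by 1.02 ± 0.30 (0.0476), Igtp by 1.00 ± 0.21 (0.0123) and Gbp2 by 0.98 ± 0.24 (0.0241). The count of 10 became 4 without mouse 2 of the double knockdown and 4 without mouse 3 of siCebpa. It became 6 without mouse 1 or mouse 3 of the double knockdown or without mouse 2 of siCebpa, and 18 without all libraries of mouse 1, with 17 higher and 1 lower where 7.48% and 7.68% of all genes were called. In the fits without 1 library, calls over all genes fell from 983 higher and 976 lower. Where 4 members were called they were 619 and 434, and 549 and 519. Where 6 were called they were 847 and 754, 647 and 471, and 649 and 551. On the TPM scale 1300 genes were called higher and 371 lower, against 983 and 976 in the count test, and the members split 11 to 1.

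No member differed between the double knockdown and siHnf4a in edgeR, with or without the block, or in DESeq2, and none reached an unadjusted p under 0.05 without the block (3 did with it and 0 in DESeq2). In this comparison 0.00663% of all genes were called. The smallest p was that of Bst2, at 0.19 ± 0.14 (95% interval -0.11 to 0.50, adjusted p = 1.00). No member passed in the interaction, which asks whether the effect of Hnf4a siRNA differs with and without Cebpa siRNA. There 2 members had an unadjusted p under 0.05, 4 with the block and 1 in DESeq2, and the test called 0.0861% of all genes, or 3.82% with the block. The nearest was Gbp7, at 0.55 ± 0.23 (0.04 to 1.06, adjusted p = 0.456). Cebpa itself was less reduced in the double knockdown, at 84.5 to 109 CPM, than in siCebpa, at 26.1 to 33.7 CPM. The comparison with siHnf4a therefore concerns a weaker Cebpa knockdown than that of siCebpa alone, and the interaction mixes both strengths. Hnf4a was also lower in the double knockdown, at 33.5 to 40.1 CPM, than in siHnf4a, at 46.4 to 59.2 CPM.

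**Figure D3:**
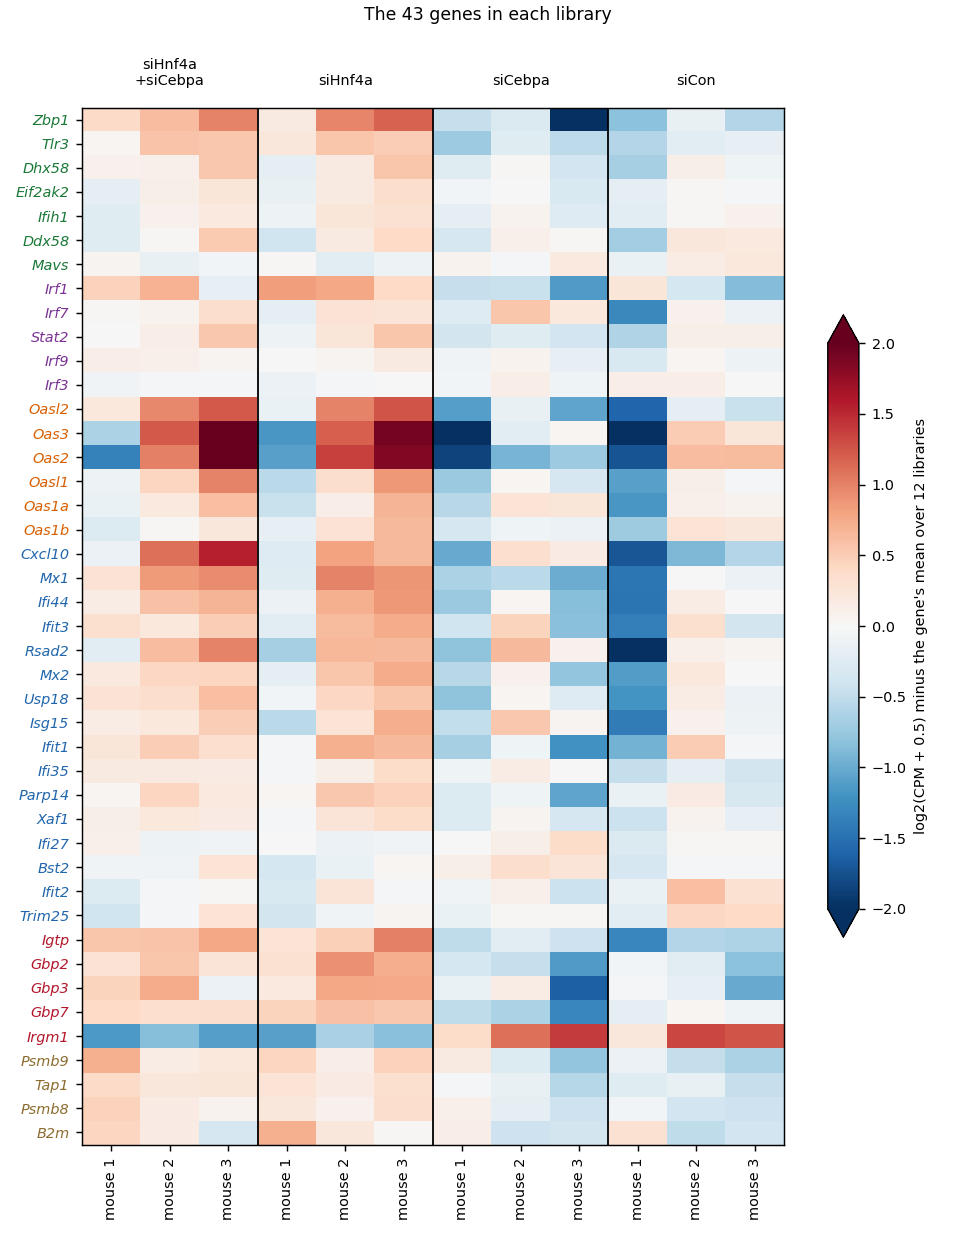
Log2(CPM + 0.5) of the 43 genes in the 12 libraries, each minus the gene's mean, with libraries grouped by siRNA and ordered by mouse. Red is above and blue below the gene's mean: the Irgm1 row is blue in the 6 libraries with Hnf4a siRNA, and the siCon library of mouse 1 is blue for most effectors and synthetases.

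The mouse number was the other axis along which these genes varied. In 16 of the 43 members mouse 1 had the lowest level in all 4 groups, against 13.8% of all tested genes. In 1 member, B2m, it had the highest in all 4, against 11.8% of all genes. All 6 oligoadenylate synthetases were among the 16, with Ddx58, Tlr3, Irf7, Isg15, Rsad2, Usp18, Trim25, Cxcl10, Igtp and Irgm1. None of the 4 antigen-processing genes was. The mice are 3 animals, so this describes these animals only, and their strain, sex and age are not given. The mouse number is also the replicate number, so the animal cannot be told apart from any handling shared by its libraries. The marker Cd68, a lysosomal protein of macrophages, was at 248 to 415 CPM in the libraries of mouse 1 and at 49.97 to 121 in those of mice 2 and 3, and its part in the difference was not tested. Cd68 is 1 of 13 listed Kupffer cell and macrophage markers, and the others are not given by mouse here. Of these, 11 were at most 6.33 CPM in any library.

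**Figure D4:**
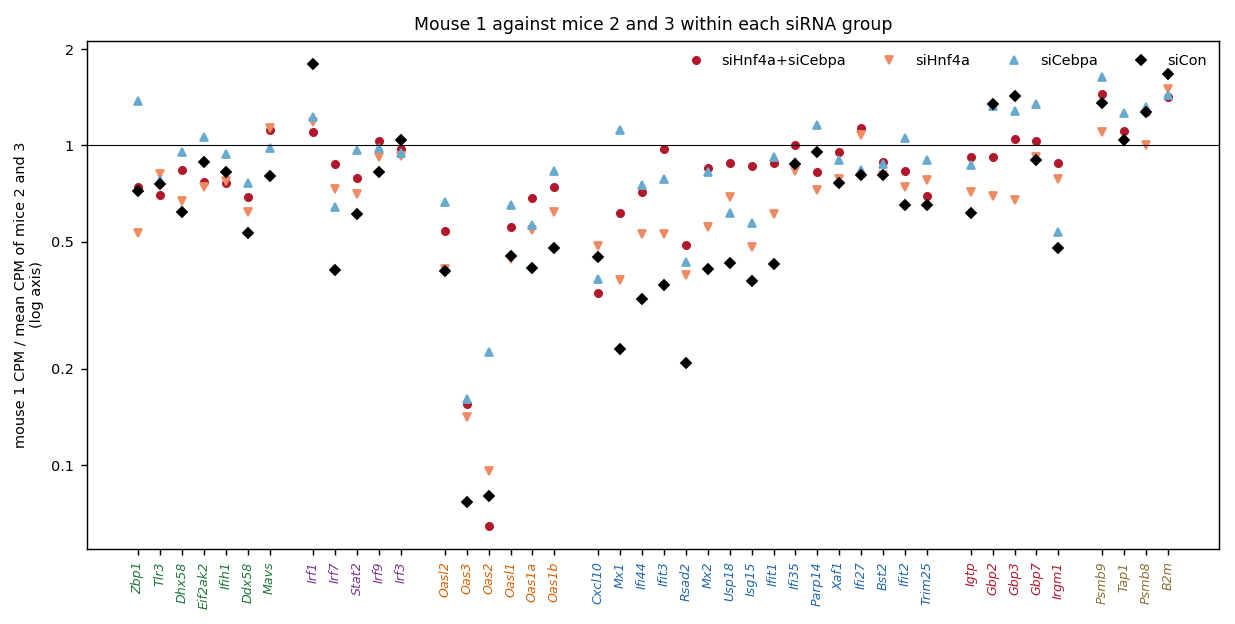
Ratio of the CPM of mouse 1 to the mean of mice 2 and 3 on a log axis, for each of the 43 genes and each siRNA group. The synthetases and many effectors lie below 1 in all groups, with Oas2 and Oas3 lowest, while B2m lies above 1 in all groups.

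Levels per transcript length, in the authors' TPM, placed the members over a wide range in siCon. B2m was at 3679 ± 1106 TPM (SD, n = 3), Bst2 at 975 ± 134 and Isg15 at 245 ± 116. There, 10 members averaged over 100 TPM and 6 under 10. The lowest were Mx1 at 0.869 ± 0.485 TPM, Oas2 at 1.10 ± 0.755 and Cxcl10 at 5.10 ± 2.15. Among the sensors the order in siCon was Dhx58 at 42.00 ± 12.04 TPM, Zbp1 at 39.9 ± 8.79, Ddx58 at 39.3 ± 12.9, Ifih1 at 31.6 ± 2.72, Mavs at 31.6 ± 4.63, Eif2ak2 at 23.8 ± 2.71 and Tlr3 at 12.03 ± 2.44. Each of the first 4 differed from the next by less than the larger of their SDs, while Eif2ak2 and Tlr3 each lay further than that below the gene before.

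Other parts of the pathway were read from lists of further genes. Of 21 interferon ligands, 17 had 0 counts in all 12 libraries, which allows up to 0.134 CPM in a library by counting error alone. Ifnb1 had 0 counts in 11 libraries. Ifnk, the one ligand with enough counts to be tested, ranged from 0.0443 to 1.15 CPM and passed in no comparison in either fit. Of 9 receptor and Janus kinase genes, Jak2 rose in siHnf4a by 0.46 ± 0.11 (edgeR adjusted p = 0.0165), where 7.24% of all genes rose. Ifnlr1, the receptor subunit for interferon lambda, fell by 0.84 ± 0.17 in the double knockdown (0.00861), where 7.13% of all genes fell. Of 15 tested adaptors and kinases downstream of the sensors none passed against siCon without the block, and with it 3 rose and 1 fell in each group with Hnf4a siRNA. With the block 14.5% of all genes rose and 15.5% fell in siHnf4a, and 13.8% and 15.6% in the double knockdown. The most abundant, the kinase Ikbke, ranged from 299 to 824 CPM.

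Of 12 negative regulators 2 rose in siHnf4a and in the double knockdown, where 7.24% and 6.9% of all genes rose. Rnf125, a ubiquitin ligase that marks RIG-I for degradation, rose by 0.99 ± 0.18 in siHnf4a (edgeR adjusted p = 0.00543) and Trex1, a nuclease that clears cytoplasmic DNA, by 0.78 ± 0.18 (0.0157). Of 31 further interferon-stimulated genes 7 rose and none fell in siHnf4a, and 5 rose in the double knockdown, against the same shares of all genes. The largest in siHnf4a were Gbp5 at 1.82 ± 0.44 (0.0189), Ifit3b at 1.65 ± 0.49 (0.0456) and Phf11d at 1.18 ± 0.29 (0.0223). Of 14 further antigen-presentation genes 4 rose and none fell in siHnf4a, where 7.24% of all genes rose. They were led by the class I genes H2-T23 at 0.86 ± 0.14 (0.00227) and H2-Q4 at 0.83 ± 0.23 (0.0318) and by Nlrc5, the activator of class I genes, at 0.81 ± 0.13 (0.00293). In siCebpa none of the genes in these lists passed without the block, where 2.94% of all genes rose and 1.72% fell. With the block 14 further interferon-stimulated genes rose and 2 fell in siHnf4a, and 12 of 14 antigen-presentation genes rose. In that fit 14.5% of all genes rose and 15.5% fell. The medians in siHnf4a against siCon were 0.38 over the further interferon-stimulated genes and 0.43 over the antigen-presentation genes.

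Markers of other cells were read beside these results, since fewer cells of a type and less RNA per cell cannot be told apart in bulk RNA. The hepatocyte list summed to 4607 to 8534 CPM in the double knockdown, 6008 to 12380 CPM in siHnf4a, 7170 to 15652 CPM in siCebpa and 7139 to 11046 CPM in siCon. Against siCon 1 of its 6 genes fell in the double knockdown, or 4 with the block, with a median log2 fold change of -0.63. Of all genes 7.13% fell in that comparison, or 15.6% with the block. Against siCebpa 2 of the 6 fell in the double knockdown, or 5 with the block, with a median of -1.11. There 6.47% of all genes fell, or 14.3% with the block. In siHnf4a against siCon none passed without the block, and the median was -0.17. The 13 Kupffer cell and macrophage markers, 11 of them tested, summed to 262 to 593 CPM in the double knockdown, 262 to 686 CPM in siHnf4a, 307 to 955 CPM in siCebpa and 474 to 928 CPM in siCon. Cd14 and Cd68 made up most of that. The other 11 were at most 6.33 CPM each, and the Kupffer-defining Clec4f and Timd4 were at 0 in some libraries and at most 1.57 and 0.0850 CPM. Cd14, the co-receptor for lipopolysaccharide, fell by 1.25 ± 0.32 in siHnf4a (edgeR adjusted p = 0.0244). Over the 11 tested markers of this list the median log2 fold change against siCon was -1.24 in the double knockdown, -1.01 in siHnf4a and -1.20 in siCebpa. In edgeR 1, 1 and 0 of them fell in these groups, and 6, 4 and 3 with the block. Of all genes 7.13%, 7.29% and 1.72% fell in these groups, and 15.6%, 15.5% and 8.11% with the block. Of the tested sinusoidal endothelial (8) and stellate or fibroblast (7) markers none passed against siCon without the block, and 2 of 3 cholangiocyte markers fell in both groups with Hnf4a siRNA. T and NK cell markers summed to at most 1.06 CPM, B cell markers to 0.239 and neutrophil markers to 0.517. Siglech, which marks the interferon-producing plasmacytoid dendritic cell, reached at most 0.161 CPM. The part of other cells in the differences was not tested.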

How the data were processed

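For each library the authors deposited expected counts per gene (estimated, not normalised, partly fractional) and TPM. Reads were trimmed with Trim Galore 0.6.4 and quantified with kallisto 0.4.6, with GRCm38.p6 as the build, per the submitters' processing notes. The sources used here do not give the counting annotation or the strand setting. Symbols and coordinates came from GENCODE M21 (GRCm38), promoters from RefSeq (GRCm38.p6).

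Counts were rounded and fitted in R 4.3.3 with edgeR 4.0.16: filterByExpr over the 4 groups (at least 0.42 CPM), TMM factors of 0.947 to 1.038, and a quasi-likelihood model of 1 mean per group over 12 libraries (8 residual degrees of freedom). Two-sided contrasts were adjusted by Benjamini-Hochberg over 15090 genes, threshold 0.05. "Rose" and "fell" mean past it. Replicates differed by more than counting error. Mouse numbers name the animal, per the series design. Deviations from the group means correlated in all 18 same-mouse pairs (r between 0.16 and 0.68), and 12 of 12 libraries correlated best with their own mouse, against at most 0.20 between mice. Mouse was therefore also fitted as a block (6 degrees of freedom).

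The alternatives tried were RLE scaling, DESeq2 1.42.0, leaving the filter off, a stricter filter (1 CPM in 3 libraries), only the compared groups, limma 3.58.1 on log2(TPM + 1) and log2(TPM + 0.1), and leaving out each library. None of these fits held the mouse block. Per-mouse directions used log2(CPM + 0.5). Scripts were tested on simulated data. Statistics are given for up to 8 members per comparison with the largest changes past the threshold, for the 7 sensors against siCon, for the member with the smallest p where none passed, and for up to 3 genes of each other list. The members and lists were chosen with earlier results of these data known. Figures used Python 3.11.15 and matplotlib 3.10.9.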

Additional observations from a re-analysis of the deposited data

How the results depend on the processing

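No called member changed sign in any alternative, and 14 of the 39 calls of a member in a comparison held whichever library was left out. The fits that left a library out had no mouse block, so they describe the unpaired model only. With mouse as a replicate block (paired fit) all 39 calls held, and the members called became 25 in siHnf4a against siCon, 5 in siCebpa against siCon, 24 in the double knockdown against siCon, 26 in siHnf4a against siCebpa and 23 in the double knockdown against siCebpa. DESeq2 called 2 in siCebpa against siCon, and the fit of only the compared groups called 0 there and 6 in siHnf4a against siCebpa. TPM with a pseudocount of 0.1 called 5 in the double knockdown against siCon. Without mouse 1, an alternative chosen after seeing the data, 2 were called in siCebpa against siCon, 20 in siHnf4a against siCebpa and 18 in the double knockdown against siCebpa. Leaving out 1 library gave 3 to 8 members in siHnf4a against siCon, 0 to 1 in siCebpa against siCon, 4 to 6 in the double knockdown against siCon, 5 to 10 in siHnf4a against siCebpa and 4 to 9 in the double knockdown against siCebpa. Calls over all genes moved in these fits too, in siHnf4a against siCon between 530 and 1057 higher and between 550 and 1084 lower. The remaining member counts stayed within 1.5 times of the first, and the cause of these moves was not tested.

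Sensors near 0 changed sign without passing. With the block the log2 fold change in siCebpa against siCon was 0.0158 for Ddx58 and 0.0145 for Dhx58. Leaving out 1 library in the double knockdown against siCon gave log2 fold changes from -0.082 to 0.31 for Ddx58 and from -0.048 to 0.16 for Ifih1. Leaving out 1 library in siCebpa against siCon gave log2 fold changes from -0.27 to 0.11 for Ddx58, from -0.22 to 0.14 for Dhx58, from -0.13 to 0.037 for Eif2ak2, from -0.10 to 0.071 for Mavs and from -0.56 to 0.12 for Zbp1. Leaving out 1 library in siHnf4a against siCon gave log2 fold changes from -0.12 to 0.32 for Ddx58. The TPM scale shifted the median of all genes by -0.12 in siCebpa against siCon. Depth limited Mx1 and Oas2 most, which had few counts in some libraries.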
